A study of Homo sapiens with 7 samples.

Results

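This comparison sets 3 RNA-seq libraries of PF-382 cells with STAG2 knocked out against 2 libraries of wild-type PF-382 cells, 5 of the 7 libraries in the series. The libraries were chosen by cell line and by the STAG2 label in their titles, and all genes except the ERCC spike-in features were used. PF-382 is a line of human T-ALL, the acute lymphoblastic leukaemia of T cells. The knockout was made by delivering Cas9 and guide RNA as a ribonucleoprotein, while the wild-type cells carry the label of no treatment. The labels do not say whether the knockout libraries come from 1 or several edited clones or from a pool, whether a control guide was delivered to the wild-type cells, or whether libraries of a group are separate cultures. Each p-value therefore measures the spread between these libraries, which may be technical. All cells were cultured in RPMI medium with fetal bovine serum and antibiotics, total RNA was isolated from live cells in fresh culture, and total RNA libraries were made. The series asks what STAG2 inactivation does to gene expression in leukaemia lines, and here the answer is described by gene class and gene family.

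STAG2 is a subunit of cohesin, the ring-shaped complex that holds sister chromatids together and extrudes chromatin loops. A ring carries either STAG2 or its paralogue STAG1. Loop extrusion brings enhancers and promoters together, and STAG2 is a recurrent target of inactivating mutations in blood cancers.

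The wild-type libraries held 32609485 and 33145516 counts and the knockout libraries 65262329, 93970572 and 81304948, so the deeper libraries were all knockout. Levels are given in CPM (counts relative to library size, adjusted by TMM), and 3 counts make 0.0321 to 0.0921 CPM. In edgeR's quasi-likelihood test with a Benjamini-Hochberg adjusted p threshold of 0.05, 30.4% of the 17442 genes tested were called, 15.8% higher and 14.6% lower in knockout. Among the 13048 protein-coding genes tested, 32.3% were called, 19.9% higher and 12.4% lower. The median log2 change, knockout over wild type throughout, was -0.02 over all genes and 0.09 over protein-coding genes. Upper-quartile scaling moved the median of all genes to -0.18 and the share of calls that were higher from 52.0% to 33.8%. The groups did not overlap for 59.8% of all genes tested. Leaving out a wild-type library gave 6281 or 6304 calls against 5311, and leaving out knockout 1, 2 or 3 gave 2649, 2344 or 2271, so each account of families gives their counts over the 5 fits that each lacked 1 library, and names the library behind a lowest or highest count that moved by over 1.5 times. In all 57 families described below the lowest count in each direction was reached without a knockout library. A fit that lacks a wild-type library keeps only the other, so its calls take no account of the spread between wild-type libraries. Each of the 5 fits repeats the filter on low counts, so the set of genes tested differs from that of the main fit. Pearson's r of log CPM, across genes, which are not independent replicates, was 0.976 for the wild-type pair, 0.993 to 0.995 for pairs of knockout libraries and 0.962 to 0.964 for pairs across groups. Both wild-type libraries and knockout 1 have titles with the prefix SA, and knockout 2 and 3 have the prefix SB, whose meaning the labels do not give. In a fit of the 3 SA libraries alone, with 1 knockout library assumed to vary like the wild type, 306 genes were called.

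T-lineage markers were summed to 4818 to 6264 CPM in wild type and 4785 to 5655 in knockout. CD5 and GATA3 fell among these 21 genes and 0 were called higher, and TRDC, the T-cell receptor delta constant gene, was at 0 in all 5 libraries. RAG1 had 52.3 and 4.51 CPM in wild type, which lay far apart, and 190, 153 and 304 in knockout. BCL11B had 390 and 463 CPM in wild type against 585, 505 and 466 in knockout. Both lay higher in every knockout library without being called. Myeloid markers were summed to 31.4 to 38.7 CPM in wild type and 0.807 to 1.42 in knockout, where CD68, CTSG and ITGAM fell and 5 of 13 were at 0 in every library, SPI1 and ELANE among them. B-lineage markers were summed to 9.17 to 39.5 and 4.26 to 18.4 CPM, and natural killer markers to 13.7 to 19.3 and 15.1 to 17.8 CPM. Erythroid and megakaryocyte markers were summed to 1.38 to 1.97 and 0.341 to 0.642 CPM, and stromal and epithelial markers to 62.5 to 67.8 and 50.2 to 53.8 CPM. The part of these markers in the results below was not tested. In bulk libraries fewer cells of a type and less RNA per cell cannot be told apart.

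STAG2 had 315 and 537 CPM in wild type and 239, 166 and 181 in knockout (log2 change -1.13 ± 0.26 SE, adjusted p 0.0218; the error given with every log2 change is the SE). The highest knockout library lay below the lower wild-type library on this scale. In the authors' TPM, which are per transcript length, STAG2 had 27.25 and 56.94 in wild type and 28.35, 17.8 and 18.24 in knockout, so that knockout 1 lay just above wild type 1 and the groups overlapped. STAG1 had 4.12 and 4.87 TPM in wild type and 13.28, 11.99 and 11.36 TPM in knockout (in CPM, log2 change 1.36 ± 0.11, adjusted p 0.00222). STAG1 thus made 13.1% and 7.88% of the summed TPM of the STAG pair in wild type and 31.9%, 40.2% and 38.4% in knockout. LMO2, a LIM-only cofactor of blood cell transcription complexes, had 22.1 and 29.7 CPM in wild type against 6.63, 6.25 and 10.8 in knockout (log2 change -1.72 ± 0.27, adjusted p 0.007604). STAG2 was no longer called without knockout 2 or 3 (adjusted p up to 0.0773). Log2 changes that moved were -0.67 for STAG2 without wild type 2.

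Of the 22 tested genes of the cohesin ring, its loader and its regulators, 3 rose and 3 fell, with a median log2 change of -0.04. The share called was thus 27.3%, beside 32.3% of protein-coding genes. RAD21, the kleisin that closes the ring, had 938 and 1080.1 CPM in wild type and 530.4, 551 and 563.9 in knockout (log2 change -0.88 ± 0.13, adjusted p 0.00628). ESCO2, which acetylates cohesin in S phase, had 58.03 and 65.3 CPM in wild type against 101, 106 and 119.6 in knockout (log2 change 0.82 ± 0.13, adjusted p 0.00715). The knockout libraries lay close together in both genes, below the wild type for RAD21 and above it for ESCO2. Condensin and SMC5/6, the related complexes that compact and repair chromosomes, had 1 member of 16 that rose (6.25%) and a median of 0.03. That member was NCAPH2, a condensin II subunit, with 76.1 and 58.4 CPM in wild type and 105, 108 and 112 in knockout (log2 change 0.69 ± 0.14, adjusted p 0.0156). Without 1 library, the counts of rises and of falls were 2 to 5 (without wild type 2) and 1 (without knockout 3) to 8 (without wild type 1) for cohesin genes. For condensin and SMC5/6 they were 0 (without knockout 1, 2 or 3) to 5 (without wild type 2) and 0 to 2 (without wild type 1). The median of the cohesin genes was 0.19 without wild type 2, and that of condensin -0.27 without wild type 1. The call of NCAPH2 was lost without knockout 1, 2 or 3 (adjusted p up to 0.0686). The levels of ESCO2 rest in part on reads divided among several genes.

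The tested members of 87 families were summarised, 57 of which are described here. Of the 87, 12 had a median log2 change above 0.5 and 15 below -0.5. The plot of family medians orders the 57, from ribosome assembly factors at the top to the RNU snRNA genes at the bottom. Genes named from a family are those with the smallest adjusted p among called members whose groups do not overlap, so the absence of overlap in them follows from the choice. Within the 3 SA libraries the median was 1.01 for ribosome assembly factors (18 rose), 0.59 for the proteasome (0 rose, 14 at an unadjusted p under 0.05), 0.49 for mitochondrial ribosomal proteins (3 rose), -1.64 for hypoxia genes (7 fell), -4.47 for metallothioneins (2 fell) and -1.85 for H/ACA snoRNAs (0 fell, 43 at an unadjusted p under 0.05). Members of a family such as histones or ribosomal proteins can share reads, and 56 genes belong to more than 1 of the described families.

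**Figure D1:**
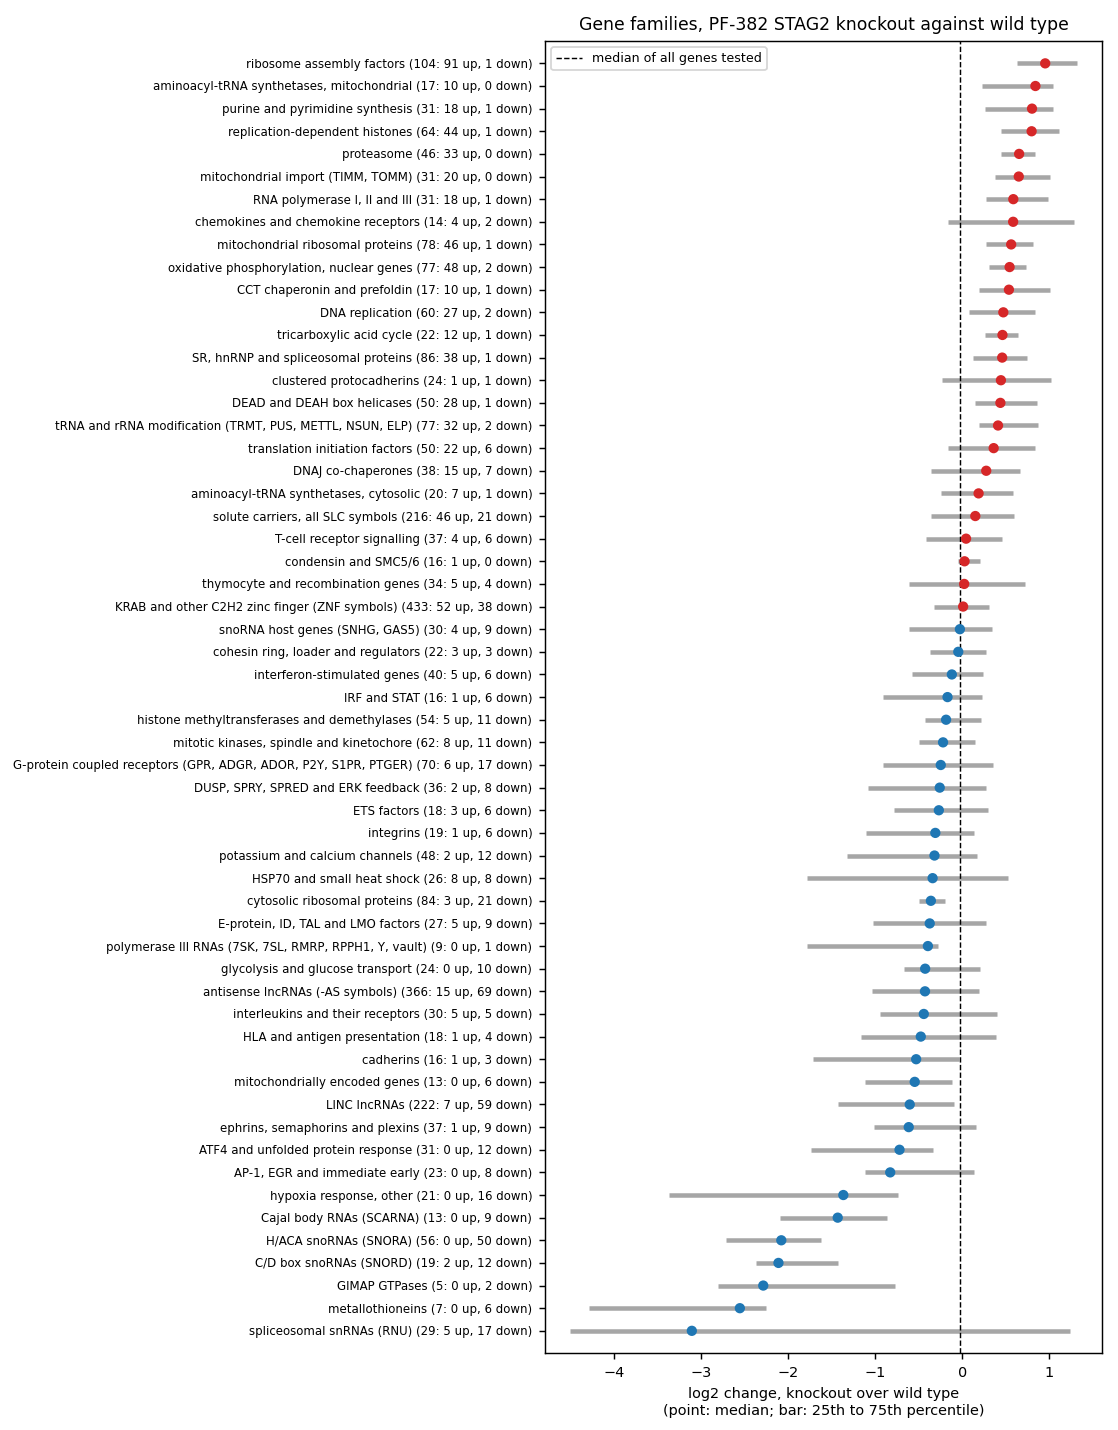
Median log2 change (points) and 25th to 75th percentile (bars) of the tested members of 57 gene families, knockout over wild type, with the number tested and called in brackets. Ribosome assembly factors have the highest median (0.95) and RNU snRNA genes the lowest (-3.10), and the dashed line is the median of all genes (-0.02).

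Most genes of ribosome assembly rose. Assembly factors are the nucleolar proteins that process, modify and fold ribosomal RNA. Of 104 tested, 91 rose and 1 fell, against 19.9% and 12.4% of protein-coding genes, with a median of 0.95. Their summed level was 5431 and 5532 CPM in wild type and 10163, 9374 and 9361 in knockout. UTP20, a component of the small-subunit processome, had 22.8 and 19.3 CPM in wild type against 91.3, 93.8 and 94.9 in knockout (log2 change 2.15 ± 0.13, adjusted p 0.00218). NOP56, a core protein of C/D box snoRNPs, had 128 and 119.9 CPM in wild type and 366, 363 and 355 in knockout (log2 change 1.54 ± 0.12, adjusted p 0.00218). NHP2, a core protein of H/ACA snoRNPs, had 42.5 and 45.2 CPM in wild type against 121, 124 and 119 in knockout (log2 change 1.46 ± 0.11, adjusted p 0.00218). RRP7A had 43.8 and 37.4 CPM in wild type and 123.1, 117 and 133 in knockout (log2 change 1.61 ± 0.13, adjusted p 0.00218). The lowest knockout library was 2.62 to 4.003 times the higher wild-type library in these 4 genes. Rises and falls numbered, in the 5 fits lacking 1 library, 71 to 92 and 0 (without knockout 1, 2 or 3) to 1 for assembly factors. NOP56, NHP2 and RRP7A share reads with other genes, so their levels depend on how these reads were divided.

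UTP20 (ENSG00000120800.5) lies on GRCh38 chromosome 12 from 101280109 to 101386616, plus strand. The 250 bases before its start site (chr12:101279855-101280104, plus strand, RefSeq, GRCh38.p14) are shown because the gene leads its family, with the E-box CACGTG, the motif bound by MYC and related factors, in capitals.

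UTP20: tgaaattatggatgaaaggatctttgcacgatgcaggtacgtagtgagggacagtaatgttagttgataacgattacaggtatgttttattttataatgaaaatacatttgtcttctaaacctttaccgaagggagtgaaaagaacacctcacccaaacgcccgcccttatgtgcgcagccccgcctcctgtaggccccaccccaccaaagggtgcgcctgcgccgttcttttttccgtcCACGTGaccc

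The E-box began 10 bases before the start site. It was in this window in 13 of the 87 assembly factors that matched the RefSeq table (14.9%), against 6.49% of 27305 promoters. Extended to 50 bases after the start site, the window held it in 32 of 87 (36.8%) and in 7.43% of all. MYC itself, named after its values were seen, had 155 and 153 CPM in wild type against 203, 194 and 158 in knockout (log2 change 0.26 ± 0.14, adjusted p 0.1996) and did not pass. The 27305 promoters were not matched to the family by level, and the part of MYC in these rises was not tested. A match is a description of letters and not a site of binding.

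Among the machinery around the ribosome most called genes were also higher, with smaller medians. Of 31 subunits of RNA polymerases I, II and III, 18 rose and 1 fell (median 0.59). POLR2F, a subunit that all 3 polymerases share, had 14.8 and 12.9 CPM in wild type and 50.9, 41.9 and 45.2 in knockout (log2 change 1.73 ± 0.15, adjusted p 0.00233). POLR1A, the largest subunit of RNA polymerase I, which transcribes ribosomal RNA, had 51.6 and 43.1 CPM in wild type against 138, 121 and 110.1 in knockout (log2 change 1.38 ± 0.15, adjusted p 0.003301). Of 77 genes of tRNA and rRNA modification, 32 rose and 2 fell (median 0.41). METTL16, an RNA methyltransferase, had 26.1 and 24.7 CPM in wild type and 66.3, 67.8 and 63.96 in knockout (log2 change 1.38 ± 0.11, adjusted p 0.00218). Of 50 translation initiation factors, 22 rose and 6 fell (median 0.36). EIF5A had 144 and 134 CPM in wild type against 356, 336 and 319 in knockout (log2 change 1.28 ± 0.12, adjusted p 0.00276). EIF6, which keeps the large ribosomal subunit from joining early, had 77.7 and 65.2 CPM in wild type and 155, 171 and 173 in knockout (log2 change 1.22 ± 0.13, adjusted p 0.00330). With 1 library left out, the number that rose and the number that fell were 12 to 20 and 0 (without knockout 1, 2 or 3) to 2 (without wild type 2) for polymerase subunits. For modification genes they were 22 to 42 and 1 (without wild type 1 or knockout 1, 2 or 3) to 3. For initiation factors they were 16 to 26 and 0 (without knockout 2 or 3) to 9. Reads of EIF5A and EIF6 are shared with other genes, and their levels depend on that division.

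Aminoacyl-tRNA synthetases, which charge tRNAs with amino acids, are given by compartment. Of 17 mitochondrial enzymes 10 rose and 0 fell (0 and 0) (median 0.84; in brackets after each 0, the counts at an unadjusted p under 0.05 and in DESeq2), while of 20 cytosolic enzymes 7 rose and 1 fell (median 0.19), and the difference between these lists was not tested. EARS2, the mitochondrial glutamyl enzyme, had 17.05 and 17.6 CPM in wild type against 42.2, 41.5 and 39.6 in knockout (log2 change 1.25 ± 0.11, adjusted p 0.00269). VARS, the valyl enzyme of the cytosol, had 90.2 and 71.8 CPM in wild type and 240.3, 249.5 and 227 in knockout (log2 change 1.56 ± 0.15, adjusted p 0.00270). The summed level of the cytosolic enzymes was 3701 CPM in wild type 1, above 2 of the 3 knockout libraries, and 2863 in wild type 2, below all of them. In the 5 fits lacking 1 library, the numbers that rose and that fell were 8 to 12 and 0 for mitochondrial synthetases. For cytosolic synthetases they were 3 (without knockout 2 or 3) to 11 (without wild type 1) and 0 (without knockout 2 or 3) to 6 (without wild type 2).

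Called cytosolic ribosomal proteins were mostly lower. Of 84 tested, 3 rose and 21 fell, the median was -0.36, and 75 had a log2 change below 0. Their summed level was 78042 and 92029 CPM in wild type and 67254, 70144 and 65000.1 in knockout. RPS26 had 66.8 and 71.04 CPM in wild type against 185, 189 and 204 in knockout and rose (log2 change 1.48 ± 0.12, adjusted p 0.00218), and RPL36A had 539.5 and 620.1 CPM in wild type and 355, 347 and 306 in knockout and fell (log2 change -0.79 ± 0.14, adjusted p 0.00933). RPL31 had 887 and 1149 CPM in wild type against 598, 573 and 525 in knockout (log2 change -0.85 ± 0.16, adjusted p 0.0114). On leaving out 1 library, the counts of rises and of falls were 1 (without knockout 1, 2 or 3) to 3 and 1 (without knockout 2 or 3) to 52 (without wild type 1) for cytosolic ribosomal proteins. The call of RPL31 was lost without knockout 2 or 3 (adjusted p up to 0.0544). RPS26, RPL36A and RPL31 share reads with other genes, so their levels depend on how these reads were divided. These genes have many processed pseudogenes.

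Among mitochondrial genes, the called nuclear genes were mostly higher and the called genes of the mitochondrial genome lower. Mitochondrial ribosomal proteins translate the transcripts of the mitochondrial genome. Of 78 tested, 46 rose and 1 fell (median 0.56), and their sum was 2683 and 2748 CPM in wild type and 4011, 4097 and 4070.4 in knockout. MRPS7 had 29.7 and 28.9 CPM in wild type and 70.2, 71.99 and 74.3 in knockout (log2 change 1.30 ± 0.11, adjusted p 0.00218), and MRPL11 had 35.9 and 35.1 CPM in wild type against 82.97, 87.8 and 87.9 in knockout (log2 change 1.28 ± 0.11, adjusted p 0.00218). Of 77 nuclear genes of oxidative phosphorylation, 48 rose and 2 fell (median 0.54). ATP5MC1, a proton-ring subunit of ATP synthase, had 16.5 and 19.6 CPM in wild type and 55.4, 61.0 and 56.2 in knockout (log2 change 1.67 ± 0.13, adjusted p 0.00218). NDUFA11, a subunit of complex I, had 43.7 and 41.9 CPM in wild type against 119, 137 and 140.1 in knockout (log2 change 1.63 ± 0.13, adjusted p 0.00218). The knockout libraries stood apart from both wild-type libraries in each of these genes. Of 31 import genes (TIMM and TOMM symbols), 20 rose and 0 fell (2 and 0) (median 0.65), and TOMM40, the channel of the outer membrane, had 51.5 and 35.5 CPM in wild type and 157, 168 and 162 in knockout (log2 change 1.90 ± 0.18, adjusted p 0.00276). Of 22 genes of the tricarboxylic acid cycle, 12 rose and 1 fell (median 0.46), and OGDH had 44.6 and 47.6 CPM in wild type against 90.6, 85.5 and 78.9 in knockout (log2 change 0.88 ± 0.12, adjusted p 0.00475). The numbers that rose and that fell, with 1 library left out, were 28 (without knockout 2 or 3) to 53 and 0 (without knockout 1, 2 or 3) to 1 for mitochondrial ribosomal proteins. For oxidative phosphorylation they were 19 (without knockout 2 or 3) to 58 and 0 (without knockout 1) to 3. For import genes they were 13 (without knockout 3) to 22 and 0. For the tricarboxylic acid cycle they were 5 (without knockout 1, 2 or 3) to 16 and 0 (without knockout 1, 2 or 3) to 2 (without wild type 1). Reads of NDUFA11 and TOMM40 are shared with other genes, and their levels depend on that division.

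Of the 13 protein-coding genes of the mitochondrial genome, 6 fell and 0 rose (0 and 0), with a median of -0.55. Their sum was 5035 and 4652 CPM in wild type and 2888, 2491 and 2226 in knockout. MT-CO1, a core subunit of complex IV, had 2155 and 2537 CPM in wild type and 1089, 944 and 831 in knockout (log2 change -1.30 ± 0.17, adjusted p 0.00469). MT-ND4, a subunit of complex I, had 181 and 121 CPM in wild type against 40.2, 39.3 and 32.7 in knockout (log2 change -2.01 ± 0.19, adjusted p 0.00276), and MT-CYB of complex III had 76.03 and 62.9 CPM in wild type and 33.7, 32.6 and 29.5 in knockout (log2 change -1.12 ± 0.13, adjusted p 0.00373). The highest knockout library was at 0.332 to 0.536 times the lower wild-type library in these 3 genes. Without 1 library, the counts of rises and of falls were 0 to 1 (without wild type 2) and 6 to 7 for these genes. The levels of MT-CO1 rest in part on reads divided among several genes.

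Protein degradation and folding genes split by kind. The proteasome, which degrades ubiquitin-tagged proteins, had 33 of 46 members that rose, while 0 fell (0 and 0) (median 0.65), and all 46 had a log2 change above 0. Its sum was 3652 and 4002 CPM in wild type and 6196, 5982 and 6531 in knockout. PSMD1, the scaffold of the regulatory particle, had 61.9 and 77.2 CPM in wild type against 182, 162 and 179.9 in knockout (log2 change 1.33 ± 0.14, adjusted p 0.00325), and PSMA7 of the core ring had 198 and 232 CPM in wild type and 444, 473 and 520.3 in knockout (log2 change 1.16 ± 0.14, adjusted p 0.00415). The chaperonin CCT and prefoldin, which fold actin and tubulin, had 10 of 17 members that rose and 1 that fell (median 0.54). CCT3 had 239 and 264 CPM in wild type against 563, 582 and 603 in knockout (log2 change 1.21 ± 0.13, adjusted p 0.00308). Of 38 DNAJ co-chaperones 15 rose and 7 fell (median 0.28), and DNAJC7 had 33.8 and 30.6 CPM in wild type and 70.2, 64.1 and 68.6 in knockout (log2 change 1.07 ± 0.12, adjusted p 0.00325). Rises and falls numbered, in the 5 fits lacking 1 library, 18 (without knockout 2 or 3) to 38 and 0 for the proteasome. For CCT and prefoldin they were 7 to 13 and 0 (without wild type 1 or knockout 1, 2 or 3) to 1. For DNAJ co-chaperones they were 9 (without knockout 3) to 18 and 3 (without knockout 1, 2 or 3) to 8.

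HSP70 and small heat shock genes moved in opposite directions within the family, with 8 of 26 higher and 8 lower and a median of -0.34 that was 0.20 without wild type 2. HSPA6, a strictly heat-inducible HSP70, had 80.2 and 159 CPM in wild type against 0.259, 0.225 and 0.0883 in knockout (log2 change -9.29 ± 0.46, adjusted p 0.00218). HSPA1B had 594 and 975 CPM in wild type and 48.99, 52.4 and 58.7 in knockout (log2 change -3.88 ± 0.23, adjusted p 0.00218), and its near-identical copy HSPA1A had 390 and 676 CPM in wild type against 14.8, 31.4 and 58.3 in knockout (log2 change -3.93 ± 0.56, adjusted p 0.00581). HSPA8, the constitutive HSP70, had 1073 and 1538 CPM in wild type and 2643, 2779 and 3204 in knockout and rose (log2 change 1.14 ± 0.21, adjusted p 0.0108). The 3 inducible genes were high in both wild-type libraries and lower in all knockout libraries. Their level in wild type 2 was 1.64 to 1.98 times that in wild type 1. CRYAB, a small heat shock protein, had 15 and 23 counts in wild type and 0 in all knockout libraries, at least 14.9-fold lower in CPM against a floor of 3 counts per library (adjusted p 0.00686). With 1 library left out, the number that rose and the number that fell were 3 (without knockout 1, 2 or 3) to 8 and 5 (without knockout 1 or 3) to 11 for HSP70 and small heat shock genes. Log2 changes that moved were -8.69 for HSPA6 without wild type 2 and -4.54 for HSPA1A without knockout 3. Reads of HSPA6, HSPA1B, HSPA1A and HSPA8 are shared with other genes, and their levels depend on that division.

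HSPA6 (ENSG00000173110.8) lies on GRCh38 chromosome 1 from 161524540 to 161526910, plus strand. The 250 bases before its start site (chr1:161524290-161524539, plus strand, RefSeq, GRCh38.p14) are shown because this gene had the largest log2 change of its family. Capitals mark GAANNTTC, a pair of inverted units of the heat shock element.

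HSPA6: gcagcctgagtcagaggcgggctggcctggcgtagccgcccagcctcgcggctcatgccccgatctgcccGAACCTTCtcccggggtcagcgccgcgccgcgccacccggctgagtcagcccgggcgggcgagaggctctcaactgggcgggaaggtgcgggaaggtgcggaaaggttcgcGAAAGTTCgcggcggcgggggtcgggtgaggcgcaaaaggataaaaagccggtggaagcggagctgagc

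This window held 2 matches, beginning 180 and 69 bases before the start site. Among 25 genes of the family that matched the RefSeq table, 8 (32.0%) had at least 1 match in such a window, against 5.85% of 27305 promoters.

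Metallothioneins, small proteins that bind zinc and copper, had 6 of 7 tested members that fell, while 0 rose (0 and 0), and a median of -2.55. MT1E had 5.801 and 5.49 CPM in wild type against 0.107, 0.364 and 0.366 in knockout (log2 change -4.31 ± 0.49, adjusted p 0.00361), with wild-type libraries that differed little. MT1G had 1.94 and 14.8 CPM in wild type and 0.229, 0.353 and 0.719 in knockout (log2 change -4.26 ± 0.87, adjusted p 0.0153), and MT1X had 13.8 and 83.7 CPM in wild type against 7.18, 9.21 and 10.4 in knockout (log2 change -2.45 ± 0.64, adjusted p 0.0319). Wild type 2 was 7.63 times as high as wild type 1 for MT1G and 6.05 times for MT1X. MT1H had 0.972 and 23.8 CPM in wild type and 0, 0.0107 and 0.0126 in knockout, levels of 0 or 1 count in the knockout libraries, and was called lower (adjusted p 0.00757). The sum over the family was 37.8 and 217 CPM in wild type and 16.3, 23.9 and 27.5 in knockout. In the 5 fits lacking 1 library, the numbers that rose and that fell were 0 and 2 (without knockout 1 or 2) to 6 for metallothioneins. Among these genes, fits lacking 1 library lost the calls of MT1G (without knockout 1 or 2, adjusted p up to 0.06004) and MT1X (without wild type 2 or knockout 1, 2 or 3, adjusted p up to 0.1004). Leaving out 1 library moved the log2 change to -5.07 for MT1G without wild type 1, -2.13 for MT1G without wild type 2, -3.21 for MT1X without wild type 1, -0.61 for MT1X without wild type 2, -11.17 for MT1H without wild type 1 and -6.56 for MT1H without wild type 2. The levels of MT1G and MT1X rest in part on reads divided among several genes.

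Genes of the hypoxia response fell. They are targets of HIF, the transcription factor that is stabilised at low oxygen. Of 21 tested outside glycolysis, 16 fell and 0 rose (1 and 1), with a median of -1.36. The sum was 1131 and 1168 CPM in wild type and 512, 521 and 529.5 in knockout. BNIP3, a mitophagy receptor, had 113 and 76.4 CPM in wild type against 6.63, 9.05 and 10.2 in knockout (log2 change -3.45 ± 0.24, adjusted p 0.00218). PPFIA4 had 19.7 and 16.7 CPM in wild type and 0.641, 0.813 and 0.706 in knockout (log2 change -4.65 ± 0.22, adjusted p 0.00218), and DDIT4, an inhibitor of mTORC1, had 69.02 and 44.2 CPM in wild type against 5.77, 7.69 and 7.87 in knockout (log2 change -2.99 ± 0.23, adjusted p 0.00218). BHLHE40, a transcriptional repressor, had 5.68 and 5.12 CPM in wild type and 0.0153, 0.0535 and 0.0126 in knockout and was called lower (adjusted p 0.00218), with knockout 1 and 3 at the level of 1 count. The wild-type libraries differed by 1.11 to 1.56 times in these 4 genes. On leaving out 1 library, the counts of rises and of falls were 0 to 1 (without wild type 2) and 14 to 16 for hypoxia genes. BNIP3 shares reads with other genes, so its levels depend on how these reads were divided.

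Glycolysis and glucose transport had 10 of 24 members that fell, while 0 rose (5 and 4) (median -0.43). PFKFB4, which sets the level of a glycolytic activator, had 22.6 and 20.5 CPM in wild type and 4.74, 5.72 and 5.24 in knockout (log2 change -2.04 ± 0.16, adjusted p 0.00218). PDK1, which holds pyruvate out of the tricarboxylic acid cycle, had 60.01 and 39.4 CPM in wild type against 14.9, 13.95 and 14.2 in knockout (log2 change -1.79 ± 0.19, adjusted p 0.00304). ALDOC had 123.2 and 104 CPM in wild type and 14.7, 25.1 and 28.3 in knockout (log2 change -2.32 ± 0.27, adjusted p 0.00372). The summed level of the family was 11292 and 12584 CPM in wild type and 12346, 13408 and 14132 in knockout, with overlapping groups. The numbers that rose and that fell, with 1 library left out, were 0 to 5 (without wild type 2) and 4 (without knockout 2) to 10 for this family.

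The stress targets of ATF4 and the unfolded protein response had 12 of 31 members that fell, while 0 rose (0 and 0) (median -0.72). DDIT3, the pro-apoptotic factor CHOP, had 36.95 and 27.6 CPM in wild type against 5.05, 5.11 and 5.74 in knockout (log2 change -2.61 ± 0.17, adjusted p 0.00218). ATF5 had 232 and 255 CPM in wild type and 55.5, 88.9 and 69.7 in knockout (log2 change -1.77 ± 0.20, adjusted p 0.00351), and VLDLR, a lipoprotein receptor, had 70.2 and 34.98 CPM in wild type against 13.1, 10.7 and 11.3 in knockout (log2 change -2.17 ± 0.28, adjusted p 0.00469). The wild-type libraries differed here as well, with sums of 4455 and 3059.7 CPM in wild type and 2542, 2523 and 2439 in knockout. Without 1 library, the counts of rises and of falls were 0 to 2 (without wild type 1) and 9 to 22 (without wild type 2) for this list. Leaving out 1 library moved the log2 change to -1.57 for VLDLR without wild type 1. The levels of DDIT3 rest in part on reads divided among several genes.

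**Figure D2:**
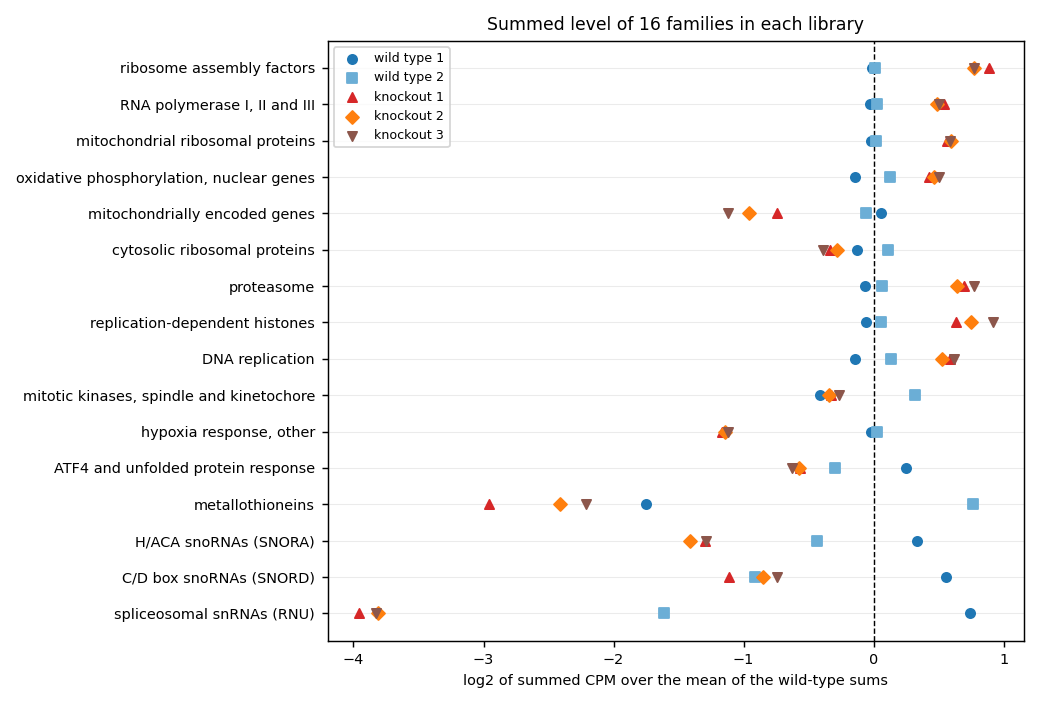
Summed CPM of 16 families in each of the 5 libraries, as log2 over the mean of the wild-type sums, 1 point per library. The knockout libraries lie together in most families, while the wild-type libraries are furthest apart for metallothioneins, SNORD and RNU genes. Wild-type sums also differ for H/ACA snoRNAs (2383 and 1401 CPM), mitotic genes (9214 and 15269) and the ATF4 list (4455 and 3060).

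Of 31 genes of nucleotide and polyamine synthesis, 18 rose and 1 fell (median 0.80). ODC1, the first enzyme of polyamine synthesis, had 97.5 and 74.5 CPM in wild type and 362, 409 and 433 in knockout (log2 change 2.22 ± 0.18, adjusted p 0.00218). SRM, spermidine synthase, had 16.05 and 11.1 CPM in wild type against 65.4, 58.9 and 57.3 in knockout (log2 change 2.15 ± 0.19, adjusted p 0.00253). NME1, a nucleoside diphosphate kinase, had 46.8 and 46.4 CPM in wild type and 199, 193 and 199 in knockout (log2 change 2.08 ± 0.11, adjusted p 0.00218), and CAD, which begins pyrimidine synthesis, had 65.1 and 63.4 CPM in wild type against 177, 166 and 141 in knockout (log2 change 1.33 ± 0.14, adjusted p 0.00304). The lowest knockout library was 2.17 to 4.13 times the higher wild-type library in these 4 genes. Rises and falls numbered, in the 5 fits lacking 1 library, 12 to 23 and 1 to 2 (without wild type 1 or 2) for this list. NME1 shares reads with other genes, so its levels depend on how these reads were divided.

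ODC1 (ENSG00000115758.13) lies on GRCh38 chromosome 2 from 10439968 to 10448504, minus strand, and the 250 bases before its RefSeq start site (chr2:10448328-10448577, minus strand, GRCh38.p14) are shown for comparison with UTP20.

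ODC1: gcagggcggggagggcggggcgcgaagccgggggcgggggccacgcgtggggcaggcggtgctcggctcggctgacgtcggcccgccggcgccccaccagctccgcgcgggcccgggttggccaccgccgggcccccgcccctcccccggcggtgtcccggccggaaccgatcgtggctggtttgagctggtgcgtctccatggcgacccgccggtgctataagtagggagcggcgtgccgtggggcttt

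CACGTG was not in this window, which says only that these letters are not there. The window held it in 6 of 27 matched genes of nucleotide and polyamine synthesis (22.2%).

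Solute carriers, the membrane transporters with SLC symbols, had 46 of 216 members that rose and 21 that fell (median 0.15, and -0.02 with upper-quartile scaling). These shares of 21.3% and 9.72% were near the 19.9% and 12.4% of protein-coding genes. SLC19A1, the reduced folate carrier, had 18.5 and 15.7 CPM in wild type and 71.1, 68.96 and 59.8 in knockout (log2 change 1.96 ± 0.15, adjusted p 0.00218). SLC25A32, which carries folate into mitochondria, had 19.7 and 18.9 CPM in wild type against 50.4, 48.3 and 48.8 in knockout (log2 change 1.35 ± 0.11, adjusted p 0.00218). SLC4A7, a sodium bicarbonate cotransporter, had 474 and 483 CPM in wild type and 180.1, 153 and 188 in knockout (log2 change -1.46 ± 0.13, adjusted p 0.00269). With 1 library left out, the number that rose and the number that fell were 20 (without knockout 3) to 64 and 8 (without knockout 1) to 37 (without wild type 2) for solute carriers. Reads of SLC25A32 are shared with other genes, and its levels depend on that division.

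Called genes of S phase were mostly higher, and mitotic genes were called in both directions. Of 60 DNA replication genes, 27 rose and 2 fell (median 0.47). POLD2, a subunit of the lagging-strand polymerase, had 96.2 and 95.98 CPM in wild type against 233, 247 and 226 in knockout (log2 change 1.29 ± 0.12, adjusted p 0.00264), and CDC45 of the replicative helicase had 35.5 and 36.1 CPM in wild type and 73.1, 73.8 and 80.7 in knockout (log2 change 1.09 ± 0.11, adjusted p 0.00303). Of 64 replication-dependent histone genes, 44 rose and 1 fell (median 0.80). HIST1H3D had 15.5 and 11.2 CPM in wild type against 66.4, 83.5 and 90.1 in knockout (log2 change 2.58 ± 0.21, adjusted p 0.00218), and HIST1H3A had 54.4 and 47.96 CPM in wild type and 127, 131 and 143 in knockout (log2 change 1.38 ± 0.12, adjusted p 0.00265). Histone transcripts lack poly(A) tails and were in reach of these total RNA libraries, with sums of 20810 and 22554 CPM in wild type and 33698, 36414 and 40919 in knockout. Of 62 genes of mitotic kinases, spindle and kinetochore, 8 rose and 11 fell, and the median of -0.22 was 0.14 without wild type 2. Their sum was 9214 and 15269 CPM in wild type and 9764, 9644 and 10197 in knockout, so that only wild type 2 stood apart. CENPX, a kinetochore and DNA repair protein, had 11.7 and 10.4 CPM in wild type against 27.7, 29.3 and 32.3 in knockout (log2 change 1.43 ± 0.14, adjusted p 0.00276). In the 5 fits lacking 1 library, the numbers that rose and that fell were 18 to 40 and 1 (without knockout 1, 2 or 3) to 4 (without wild type 1) for replication genes. For histone genes they were 28 (without knockout 2 or 3) to 51 and 1 to 2 (without wild type 2). For mitotic genes they were 3 (without knockout 3) to 15 (without wild type 2) and 0 (without knockout 1 or 2) to 34 (without wild type 1). The levels of HIST1H3D rest in part on reads divided among several genes.

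Called RNA processing genes were nearly all higher, with medians near that of replication genes. Of 86 SR, hnRNP and spliceosomal proteins, 38 rose and 1 fell (median 0.46). SRSF1, a splicing activator, had 255 and 259 CPM in wild type and 757, 712 and 757 in knockout (log2 change 1.53 ± 0.13, adjusted p 0.00218), and SRSF2 had 210.3 and 175 CPM in wild type against 476, 462 and 507 in knockout (log2 change 1.32 ± 0.14, adjusted p 0.00317). Of 50 DEAD and DEAH box helicases, which unwind RNA, 28 rose and 1 fell (median 0.44). DHX9 had 218 and 227 CPM in wild type and 636, 624 and 652 in knockout (log2 change 1.52 ± 0.12, adjusted p 0.00218). On leaving out 1 library, the counts of rises and of falls were 22 (without knockout 3) to 58 (without wild type 2) and 0 (without knockout 2 or 3) to 2 (without wild type 1) for SR, hnRNP and spliceosomal proteins. For helicases they were 15 (without knockout 1, 2 or 3) to 29 and 1 to 4 (without wild type 1). SRSF1 shares reads with other genes, so its levels depend on how these reads were divided.

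Zinc finger genes with ZNF symbols are the largest protein family described, and many repress transposable elements. Of 433 tested, 52 rose (12.01%) and 38 fell (8.78%), a total of 20.8% beside 32.3% of protein-coding genes, with a median of 0.01 that was -0.15 with upper-quartile scaling. ZNF738 had 38.95 and 36.3 CPM in wild type against 17.5, 16.01 and 15.8 in knockout (log2 change -1.20 ± 0.12, adjusted p 0.00276), and ZNF480 had 16.5 and 12.2 CPM in wild type and 45.6, 41.9 and 40.3 in knockout (log2 change 1.57 ± 0.17, adjusted p 0.00317). Of 54 histone methyltransferases and demethylases 5 rose and 11 fell (median -0.18). KDM7A, a demethylase of repressive histone marks, had 42.02 and 33.1 CPM in wild type against 12.5, 8.26 and 6.901 in knockout (log2 change -2.03 ± 0.26, adjusted p 0.00469), and KDM4B had 72.1 and 72.7 CPM in wild type and 41.8, 41.8 and 37.1 in knockout (log2 change -0.85 ± 0.11, adjusted p 0.00469). For KDM4B the highest knockout library was 0.5802 times the lower wild-type library, with little spread in either group. The numbers that rose and that fell, with 1 library left out, were 15 (without knockout 3) to 87 (without wild type 1) and 12 (without knockout 3) to 63 (without wild type 1) for ZNF genes. For histone methyltransferases and demethylases they were 2 (without knockout 1, 2 or 3) to 10 (without wild type 2) and 3 (without knockout 2) to 21 (without wild type 1).

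Transcription factors and feedback genes that respond to growth signals were mostly lower among those called. The share called was 50.0% for ETS factors, 27.8% for ERK feedback genes and 34.8% for AP-1, EGR and immediate early genes. Of protein-coding genes 32.3% were called. The shares that fell were 33.3%, 22.2% and 34.8% in the same order, beside 12.4% of protein-coding genes. Of 18 ETS factors 3 rose and 6 fell (median -0.27). ETV5, a target of ERK signalling, had 134 and 131 CPM in wild type against 17.97, 10.1 and 34.5 in knockout (log2 change -2.67 ± 0.45, adjusted p 0.00895). ETV4 had 11.2 and 18.2 CPM in wild type and 2.35, 1.05 and 4.42 in knockout (log2 change -2.50 ± 0.56, adjusted p 0.0201). Knockout 2 was the lowest and knockout 3 the highest of the knockout libraries in both. Of 36 DUSP, SPRY, SPRED and other ERK feedback genes 2 rose and 8 fell (median -0.26), and DUSP16 had 25.5 and 35.6 CPM in wild type against 9.52, 7.11 and 8.01 in knockout (log2 change -1.90 ± 0.20, adjusted p 0.00311). Of 23 AP-1, EGR and immediate early genes 8 fell and 0 rose (2 and 0) (median -0.83). FOS had 6.36 and 6.66 CPM in wild type and 1.296, 1.44 and 2.01 in knockout (log2 change -2.04 ± 0.27, adjusted p 0.00475), and IER3 had 21.8 and 28.5 CPM in wild type against 6.59, 8.12 and 9.25 in knockout (log2 change -1.66 ± 0.20, adjusted p 0.00397). Without 1 library, the counts of rises and of falls were 0 (without knockout 3) to 3 and 2 (without knockout 1 or 2) to 7 for ETS factors. For ERK feedback genes they were 1 (without wild type 2 or knockout 1, 2 or 3) to 7 (without wild type 1) and 4 (without knockout 1) to 9. For AP-1, EGR and immediate early genes they were 0 to 3 (without wild type 1) and 3 (without knockout 1 or 2) to 10. The call of ETV4 was lost without knockout 1 (adjusted p up to 0.0716). Leaving out 1 library moved the log2 change to -3.26 for ETV5 without knockout 3 and -3.14 for ETV4 without knockout 3.

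Both STAT5 genes fell, and genes around the E-proteins moved in both directions. Of 16 genes on the IRF and STAT list, which also holds IRF2BP2, 1 rose and 6 fell (median -0.17). STAT5B, which carries cytokine signals to the nucleus, had 379.6 and 419 CPM in wild type and 165, 148 and 147 in knockout (log2 change -1.38 ± 0.12, adjusted p 0.00262), and STAT5A had 148 and 158 CPM in wild type against 44.5, 67.7 and 56.2 in knockout (log2 change -1.45 ± 0.18, adjusted p 0.00416). IRF2BP2, a corepressor, had 243 and 248 CPM in wild type and 87.96, 97.97 and 86.3 in knockout (log2 change -1.44 ± 0.11, adjusted p 0.00218). Of 27 genes on the list of E-protein, ID, TAL and LMO factors, which also holds MYB and HHEX, 5 rose and 9 fell (median -0.37). ID3, an inhibitor of E-proteins, had 16.9 and 17.4 CPM in wild type against 51.3, 81.03 and 67.7 in knockout (log2 change 1.96 ± 0.21, adjusted p 0.00325). MYB had 526 and 697 CPM in wild type and 320, 302 and 326 in knockout (log2 change -0.95 ± 0.15, adjusted p 0.007802), and HHEX, a homeobox factor downstream of LMO2 in T-ALL, had 3.06 and 11.9 CPM in wild type against 0.0305, 0.0962 and 0.366 in knockout (log2 change -5.48 ± 0.95, adjusted p 0.00931). Rises and falls numbered, in the 5 fits lacking 1 library, 0 (without knockout 2 or 3) to 3 (without wild type 1) and 3 (without knockout 3) to 8 for IRF and STAT genes. For E-protein, ID, TAL and LMO factors they were 2 (without knockout 1, 2 or 3) to 5 and 3 (without knockout 2 or 3) to 9. The median of the IRF and STAT genes was 0.06 with genes of whole counts only. The log2 change moved to -6.78 for HHEX without knockout 3, -6.14 for HHEX without wild type 1 and -4.17 for HHEX without wild type 2. STAT5B and STAT5A share reads with other genes, so their levels depend on how these reads were divided.

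**Figure D3:**
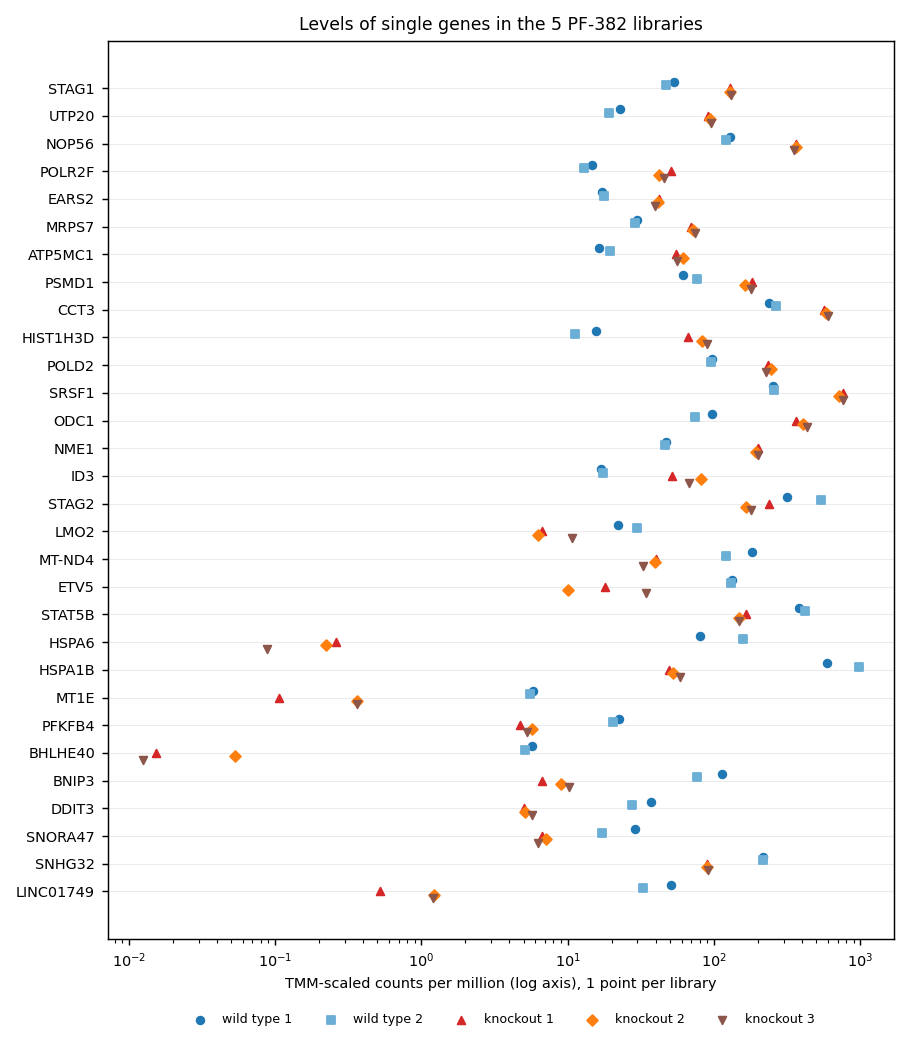
Level of 30 named genes in each of the 5 libraries, in TMM-scaled CPM on a log axis, 1 point per library. The first 15 genes are higher in the 3 knockout libraries and the other 15 lower, and HSPA6 spans the widest range, from 0.0883 to 159 CPM.

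T-cell receptor signalling and thymocyte genes had called members in both directions. Of 37 receptor signalling genes 4 rose and 6 fell (27.0%, median 0.04), and of 34 thymocyte and recombination genes 5 rose and 4 fell (26.5%, median 0.02), beside 32.3% of protein-coding genes called. RASGRP1, which activates RAS downstream of the receptor, had 41.8 and 38.5 CPM in wild type and 11.97, 7.64 and 9.88 in knockout (log2 change -2.03 ± 0.20, adjusted p 0.00276). CD8B had 0.294 and 0.153 CPM in wild type against 2.64, 2.65 and 2.57 in knockout (log2 change 3.53 ± 0.38, adjusted p 0.00317), a low level in every library, and CD5, an inhibitory receptor, had 105 and 91.2 CPM in wild type and 49.3, 48.6 and 54.3 in knockout (log2 change -0.95 ± 0.12, adjusted p 0.004097). S1PR1, the receptor by which thymocytes leave the thymus, had 21.7 and 23.4 CPM in wild type against 2.105, 3.96 and 1.31 in knockout (log2 change -3.19 ± 0.43, adjusted p 0.00515). CCR9, a chemokine receptor of thymic homing, had 118 and 152 CPM in wild type and 346, 280.4 and 344 in knockout (log2 change 1.26 ± 0.17, adjusted p 0.00532). With 1 library left out, the number that rose and the number that fell were 1 (without knockout 1, 2 or 3) to 10 (without wild type 1) and 3 (without knockout 1 or 3) to 7 for receptor signalling genes. For thymocyte and recombination genes they were 3 (without knockout 3) to 8 (without wild type 1 or 2) and 1 (without knockout 2) to 7 (without wild type 1). Both medians turned below 0 with upper-quartile scaling (-0.12 and -0.14) and without knockout 3 (-0.09 and -0.12).

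Cytokine and antigen presentation genes showed no common direction. The share called was 42.9% for chemokines and their receptors and 33.3% for interleukins and theirs. It was 27.8% for HLA and antigen presentation genes and 27.5% for interferon-stimulated genes, beside 32.3% of protein-coding genes. Of 14 chemokines and their receptors 4 rose and 2 fell, with a median of 0.59 that was -0.14 without wild type 2. Of 30 interleukins and their receptors 5 rose and 5 fell (median -0.44), and IL6ST, the shared receptor chain gp130, had 30.2 and 36.1 CPM in wild type against 15.9, 18.5 and 17.04 in knockout (log2 change -0.95 ± 0.14, adjusted p 0.00593). Of 18 HLA and antigen presentation genes 1 rose and 4 fell (median -0.48). TAPBP, which helps load peptides on class I molecules, had 101 and 84.2 CPM in wild type and 176, 161 and 150.3 in knockout (log2 change 0.81 ± 0.14, adjusted p 0.00900), and HLA-E had 248 and 119.6 CPM in wild type against 60.7, 48.7 and 71.5 in knockout (log2 change -1.61 ± 0.31, adjusted p 0.01295). Of 40 interferon-stimulated genes 5 rose and 6 fell (median -0.12). GBP4 had 11.2 and 15.5 CPM in wild type and 4.19, 4.34 and 4.28 in knockout (log2 change -1.65 ± 0.20, adjusted p 0.00406) and ISG15 had 42.7 and 27.4 CPM in wild type against 60.4, 76.02 and 79.2 in knockout (log2 change 1.04 ± 0.22, adjusted p 0.0178). In the 5 fits lacking 1 library, the numbers that rose and that fell were 3 to 5 and 0 (without knockout 3) to 1 (without wild type 1 or 2 or knockout 1 or 2) for chemokines and receptors. For interleukins and receptors they were 1 (without knockout 3) to 5 and 1 (without knockout 1 or 2) to 11 (without wild type 2). For HLA and antigen presentation genes they were 1 to 5 (without wild type 1) and 0 (without knockout 1) to 9 (without wild type 2). For interferon-stimulated genes they were 0 (without knockout 3) to 9 (without wild type 1) and 1 (without knockout 1 or 2) to 10 (without wild type 2). The median turned to 0.32 for HLA and antigen presentation genes with genes of whole counts only, to 0.05 for interferon-stimulated genes without wild type 1, and to -0.04 for chemokines and receptors with all 7 libraries. Among these genes, fits lacking 1 library lost the calls of HLA-E (without knockout 1, adjusted p up to 0.0504) and ISG15 (without knockout 2 or 3, adjusted p up to 0.0698). Leaving out 1 library moved the log2 change to -0.98 for HLA-E without wild type 1. The levels of HLA-E and GBP4 rest in part on reads divided among several genes.

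Among called surface and adhesion genes most were lower. The families here had 8.33% (clustered protocadherins) to 40.0% (GIMAP) of their members called, beside 32.3% of protein-coding genes. The share that fell was 18.75% (cadherins) to 40.0% outside the clustered protocadherins, beside 12.4% of protein-coding genes. In the quintile of protein-coding genes with the lowest mean CPM 19.6% fell, and the part of level here was not tested. Of 19 integrins 1 rose and 6 fell (median -0.31). ITGAL, the alpha chain of LFA-1, had 38.7 and 45.8 CPM in wild type and 10.6, 10.03 and 11.1 in knockout (log2 change -1.998 ± 0.13, adjusted p 0.00218), and ITGA4, the alpha chain of VLA-4, had 550.4 and 441 CPM in wild type against 273, 186 and 152 in knockout (log2 change -1.29 ± 0.25, adjusted p 0.01397). Of 37 ephrins, semaphorins and plexins 1 rose and 9 fell (median -0.61), and EFNA3 had 5.24 and 4.45 CPM in wild type and 0.6101, 0.748 and 0.631 in knockout (log2 change -2.86 ± 0.26, adjusted p 0.00265). Of 70 G-protein coupled receptors 6 rose and 17 fell (median -0.25). P2RY8 has 2 entries with the same values, and each counts among the 70 and the 17. ADORA2A, an adenosine receptor, had 1.21 and 0.583 CPM in wild type against 11.1, 6.98 and 11.2 in knockout and was among those that rose (log2 change 3.44 ± 0.42, adjusted p 0.00397). Of 48 potassium and calcium channel genes 2 rose and 12 fell (median -0.32), and KCNH2 had 46.99 and 75.5 CPM in wild type and 13.7, 16.03 and 24.5 in knockout (log2 change -1.76 ± 0.30, adjusted p 0.00877). Of 16 cadherins 1 rose and 3 fell (median -0.53), and CELSR3 had 20.96 and 25.6 CPM in wild type against 6.91, 9.11 and 5.24 in knockout (log2 change -1.72 ± 0.25, adjusted p 0.00614). Of 24 clustered protocadherins 1 rose and 1 fell, and their sum was 8.71 to 25.3 CPM over the 5 libraries with overlapping groups. GIMAP GTPases had 2 of 5 members that fell, while 0 rose (1 and 1) (median -2.28), and GIMAP1 had 8.598 and 6.84 CPM in wild type and 0.854, 0.791 and 1.68 in knockout (log2 change -2.80 ± 0.38, adjusted p 0.00529). On leaving out 1 library, the counts of rises and of falls were 0 (without knockout 1, 2 or 3) to 3 (without wild type 2) and 4 to 6 for integrins. For ephrins, semaphorins and plexins they were 0 (without knockout 1 or 3) to 2 (without wild type 1 or 2) and 3 (without knockout 3) to 11. For G-protein coupled receptors they were 2 (without knockout 2 or 3) to 10 (without wild type 1) and 9 (without knockout 1, 2 or 3) to 24. For channels they were 0 (without knockout 1, 2 or 3) to 5 (without wild type 1) and 6 (without knockout 1) to 10. For cadherins they were 0 (without knockout 1, 2 or 3) to 3 (without wild type 2) and 3 to 6 (without wild type 2). For clustered protocadherins they were 0 (without knockout 2 or 3) to 3 (without wild type 1) and 0 (without wild type 1 or knockout 1, 2 or 3) to 1. For GIMAP genes they were 0 and 1 (without wild type 2 or knockout 1) to 3. Without wild type 1 the median was 0.05 for ephrins, semaphorins and plexins and 0.01 for the channels. The call of ITGA4 was lost without knockout 2 (adjusted p up to 0.0566). The log2 change moved to 4.07 for ADORA2A without wild type 1. EFNA3, ADORA2A and GIMAP1 share reads with other genes, so their levels depend on how these reads were divided.

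By gene class, calls in protein-coding genes were mostly higher and calls in other classes mostly lower in knockout in the main fit. In a fit of protein-coding genes only, 2046 rose and 1938 fell. By at least 2-fold, 799 protein-coding genes rose and 963 fell in the main fit. Protein-coding genes took 75.9% and 81.9% of the counts in wild type and 85.3%, 83.3% and 83.7% in knockout. Of 2614 lncRNA genes 89 rose and 539 fell (3.405% and 20.6%, median -0.54). Of 797 processed pseudogenes 48 rose and 86 fell (6.02% and 10.8%), and of 522 other pseudogenes 23 rose and 133 fell (4.41% and 25.5%). Among all genes tested 15.8% rose and 14.6% fell, so the share of processed pseudogenes that fell was below that of all genes. Of 89 snoRNA and scaRNA genes 2 rose and 70 fell (median -1.91), and of 45 snRNA genes 6 rose and 30 fell (median -3.10). The share of counts in these small RNA classes was not the same in the 2 wild-type libraries, and its part in the result was not tested.

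**Figure D4:**
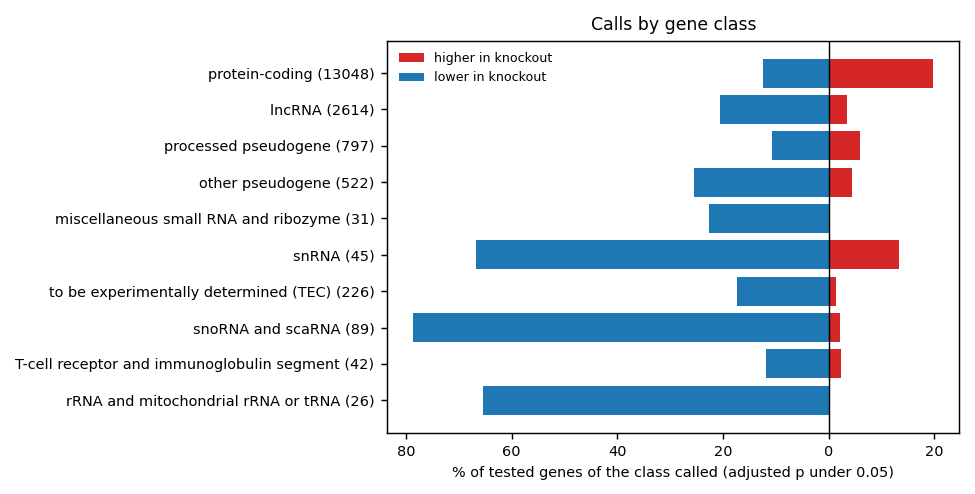
Share of tested genes of each class called higher (red, to the right) or lower (blue, to the left) in knockout, with the number tested in brackets. In the main fit protein-coding genes were called higher more often (19.9% against 12.4%), and snoRNA and scaRNA genes lower in 78.7%.

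H/ACA snoRNAs, which guide pseudouridine formation in ribosomal RNA, had 50 of 56 members that fell, while 0 rose (0 and 0) (median -2.08). SNORA47 had 29.03 and 17.1 CPM in wild type against 6.73, 7.12 and 6.28 in knockout (log2 change -1.78 ± 0.24, adjusted p 0.00498), and SNORA71A had 28.7 and 24.5 CPM in wild type and 10.7, 7.84 and 5.98 in knockout (log2 change -1.70 ± 0.25, adjusted p 0.00628). Their sum was 2383 and 1401 CPM in wild type and 769, 713 and 776 in knockout, and NHP2, a protein of the same particles, rose. Of 19 C/D box snoRNAs, which guide methylation, 12 fell and 2 rose (median -2.11). Their sum was 10014 and 3612 CPM in wild type and 3157, 3770.4 and 4065 in knockout, so that wild type 2 lay within the range of the knockout libraries. SNORD97 had 40.5 and 25.99 CPM in wild type against 15.6, 13.4 and 14.5 in knockout (log2 change -1.20 ± 0.20, adjusted p 0.00841), and SNORD3B-2, a copy of the U3 snoRNA, had 64.5 and 57.4 CPM in wild type and 109, 109.9 and 144 in knockout and rose (log2 change 0.99 ± 0.17, adjusted p 0.00855). Of 13 SCARNA genes, whose RNAs guide modification of snRNAs in Cajal bodies, 9 fell and 0 rose (0 and 0) (median -1.43), and SCARNA12 had 219.9 and 225 CPM in wild type against 130.4, 133 and 132 in knockout (log2 change -0.76 ± 0.10, adjusted p 0.00536). The numbers that rose and that fell, with 1 library left out, were 0 and 20 (without knockout 3) to 69 for H/ACA snoRNAs. For C/D box snoRNAs they were 1 (without knockout 1, 2 or 3) to 2 and 4 (without wild type 1 or knockout 2 or 3) to 16. For SCARNA genes they were 0 and 6 to 13. The filter on low counts was repeated in these fits, so more than the 56 H/ACA snoRNAs above could be tested. Reads of SNORA71A, SNORD97, SNORD3B-2 and SCARNA12 are shared with other genes, and their levels depend on that division.

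Spliceosomal snRNA genes with RNU symbols had 17 of 29 members that fell and 5 that rose (median -3.10). RNU1-1, a U1 gene, had 619 and 148 CPM in wild type and 17.4, 16.7 and 16.8 in knockout (log2 change -4.50 ± 0.55, adjusted p 0.00397), with the same values in RNU1-27P and RNU1-28P, which share its reads. Wild type 1 was 4.18 times as high as wild type 2 there. Of 9 abundant RNAs of polymerase III, 1 fell and 0 rose (0 and 0) (median -0.39), and RNY3, a Y RNA, had 172 and 53.2 CPM in wild type against 42.6, 27.8 and 27.96 in knockout (log2 change -1.78 ± 0.46, adjusted p 0.0305). Of 30 snoRNA host genes, whose introns hold snoRNAs, 4 rose and 9 fell (median -0.03). SNHG32 had 216 and 216 CPM in wild type and 89.8, 89.2 and 91.1 in knockout (log2 change -1.26 ± 0.10, adjusted p 0.00218), and ZFAS1 had 445 and 576 CPM in wild type against 216, 214 and 223 in knockout (log2 change -1.23 ± 0.14, adjusted p 0.00378), while SNHG16 had 66.5 and 59.5 CPM in wild type and 139, 139 and 121 in knockout and rose (log2 change 1.08 ± 0.13, adjusted p 0.00375). With genes of whole counts only, 11 RNU genes were tested, of which 5 rose and 1 fell, and their median was 1.44. The median of the host genes was -0.21 over the 7 with whole counts and 0.14 without wild type 1. Without 1 library, the counts of rises and of falls were 1 (without knockout 1, 2 or 3) to 6 and 8 (without knockout 2) to 20 for RNU genes. For polymerase III RNAs they were 0 and 0 (without wild type 1 or knockout 1, 2 or 3) to 6 (without wild type 2). For snoRNA host genes they were 2 (without knockout 1 or 2) to 6 and 4 (without knockout 1 or 2) to 9. The call of RNY3 was lost without wild type 1 or knockout 1, 2 or 3 (adjusted p up to 0.102). Leaving out 1 library moved the log2 change to -3.12 for RNU1-1 without wild type 1, -5.17 for RNU1-1 without wild type 2, -0.69 for RNY3 without wild type 1 and -2.37 for RNY3 without wild type 2. The levels of RNU1-1, RNY3, SNHG32, ZFAS1 and SNHG16 rest in part on reads divided among several genes.

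Called long non-coding genes were mostly lower. Of 222 LINC genes 7 rose and 59 fell (median -0.60), and of 366 antisense lncRNAs 15 rose and 69 fell (median -0.43). The share called was 29.73% for LINC genes and 22.95% for antisense lncRNAs, beside 30.4% of all genes. The shares that fell were 26.58% and 18.85% in the same order, beside 14.6% of all genes. In the quintile of protein-coding genes with the lowest mean CPM 4.75% rose and 19.6% fell, and the part of level here was not tested. LINC01749 had 50.5 and 32.8 CPM in wild type against 0.519, 1.23 and 1.21 in knockout (log2 change -5.38 ± 0.39, adjusted p 0.00218), and LINC01226 had 19.7 and 29.9 CPM in wild type and 1.46, 1.58 and 2.06 in knockout (log2 change -3.86 ± 0.26, adjusted p 0.00218). LEF1-AS1 had 13.4 and 15.6 CPM in wild type against 4.07, 3.84 and 4.29 in knockout (log2 change -1.83 ± 0.18, adjusted p 0.00276), and ZNF710-AS1 had 21.7 and 31.1 CPM in wild type and 7.06, 6.07 and 5.59 in knockout (log2 change -2.08 ± 0.20, adjusted p 0.00276). The sources used here do not give the strand setting of the counting, so reads of an antisense gene and of its partner may not be told apart. Rises and falls numbered, in the 5 fits lacking 1 library, 2 (without knockout 2 or 3) to 19 (without wild type 1) and 23 (without knockout 2) to 59 for LINC genes. For antisense lncRNAs they were 2 (without knockout 2) to 37 (without wild type 1) and 30 (without knockout 2) to 90. LINC01226 shares reads with other genes, so its levels depend on how these reads were divided.

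By CPM, the largest gains among called protein-coding genes whose groups do not overlap were in cytoskeletal, chaperone and histone genes. ACTB had 3184 and 2440.4 CPM in wild type against 6073, 5859.8 and 6336 in knockout (log2 change 1.11 ± 0.18, adjusted p 0.00779), HSPA8 was second, and CDK6, a G1 cyclin-dependent kinase, had 1686 and 2375 CPM in wild type and 3827, 3266 and 3106 in knockout (log2 change 0.74 ± 0.20, adjusted p 0.0366). Of the 10 with the largest gains, 5 were histone genes, among them HIST1H1E with 838 and 732 CPM in wild type against 1889, 2002 and 2316 in knockout, and the others were HMGN2 and PPIA. The largest losses were in MT-CO1 and the inducible HSP70 pair HSPA1B and HSPA1A, followed by RPS3A, TPT1, CHI3L2, SPTBN1, RPS3, RPS18 and PSAP. CHI3L2, a chitinase-like protein, had 624 and 1503 CPM in wild type and 267, 222 and 393 in knockout (log2 change -1.85 ± 0.40, adjusted p 0.0173), and PSAP, a lysosomal protein precursor, had 779 and 1186 CPM in wild type against 414, 476 and 501 in knockout (log2 change -1.08 ± 0.20, adjusted p 0.0117). Calls were lost on leaving out 1 library for CDK6 (without knockout 1, 2 or 3, adjusted p up to 0.121), CHI3L2 (without knockout 1 or 2, adjusted p up to 0.0651) and PSAP (without knockout 1, adjusted p up to 0.0508). Log2 changes that moved were -1.06 for CHI3L2 without wild type 2. Reads of ACTB are shared with other genes, and its levels depend on that division.

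Genes detected in 1 group only were few. Among called protein-coding genes, 15 were at 0 counts in each wild-type library and 5 at 0 in every knockout library. PON2, a membrane lactonase, had 23, 76 and 51 counts in knockout and 0 in wild type, at least 6.68-fold higher in CPM against a floor of 3 counts per library (adjusted p 0.00877). FUT3, a fucosyltransferase, had 30 and 11 counts in wild type and 0 in knockout, at least 15.8-fold lower (adjusted p 0.00964), and CACNA1G, a T-type calcium channel, had 7 and 8 counts in wild type and 0 in knockout, at least 5.86-fold lower (adjusted p 0.0140). The calls of FUT3 and CACNA1G were lost without wild type 1, and that of CACNA1G also without wild type 2. The wild-type libraries were the shallower, so a count of 0 there allows a higher level than a count of 0 in knockout.

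The direction of calls differed with the level of the gene. In the quintile of protein-coding genes with the lowest mean CPM 4.75% rose and 19.6% fell, and in the quintile with the highest 29.3% rose and 8.28% fell. By gene span the share that rose was 24.3% in the shortest quintile and 14.3% in the longest, while the share that fell was 12.7% and 12.8%. Exonic length gave a like pattern, with 24.0% and 13.5% that rose. Over the 23 chromosomes made of the autosomes and X, the median log2 change of protein-coding genes lay between 0.01 on chromosome 15 and 0.16 on chromosome 2, and the share that rose lay between 9.94% and 22.9%. These shares are descriptions over genes, which are not independent replicates.

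**Figure D5:**
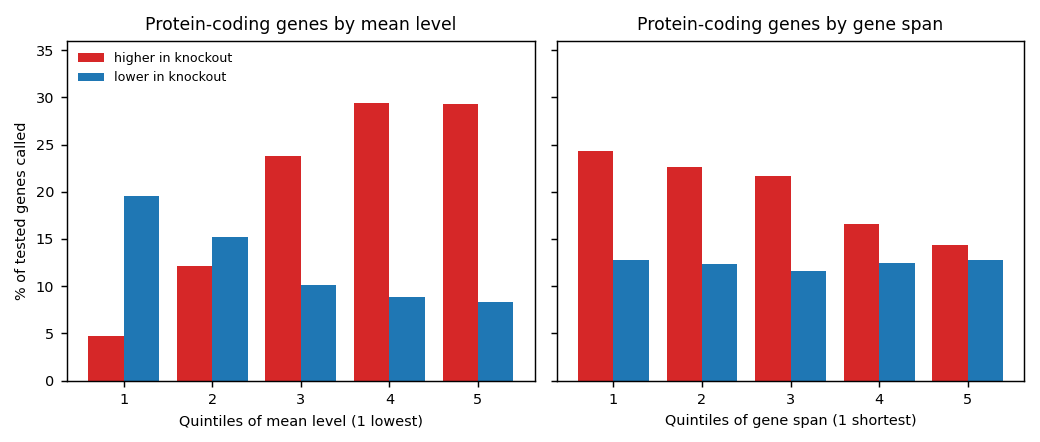
Share of tested protein-coding genes called higher (red) or lower (blue) in knockout, by quintile of mean CPM (left) and by quintile of genomic span (right). The share called higher goes from 4.75% to 29.3% between the lowest and highest level and from 24.3% to 14.3% between the shortest and longest span.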

How the data were processed

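Total RNA was sequenced in 5 PF-382 libraries (2 wild-type, 3 STAG2 knockout). STAR, RSEM and the builds GRCh38 and hg38 are named in the submitters' processing notes, without versions, and the annotation release and strand setting are not given in the sources used here. The authors deposited expected counts per gene, which are estimated reads that are not normalized, per the file headers. The TPM values in the same files were also made by the authors, and they were used here only for levels per transcript length. Gene positions came from GENCODE 29, which held 58577 of 60662 genes. The 92 ERCC features, at 0 counts in these libraries, were left out.

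Rounded expected counts of the 5 libraries entered edgeR 4.0.16 (R 4.3.3), with TMM scaling, its filterByExpr filter by group and a two-sided quasi-likelihood test without covariates. The Benjamini-Hochberg adjustment covered all 17442 tested genes, and adjusted p under 0.05 was called. Standard errors were derived from the log2 change and the F statistic. Of the called genes, 1368 had fractional counts and share reads with other genes. The test was also run on simulated data with 17012 genes, of which 93 had a 2-fold and 97 a 4-fold change. It called 22.6% of the former and 89.7% of the latter, and 4.42% of its calls were false. Few genes changed there, while 30.4% were called in the real data, so the 4.42% need not hold here. Whether the simulated spread between libraries matches that of each real group was not tested.

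Families were defined by symbol patterns or lists. The members, families and lists were chosen with earlier results of these data known. Genes were named by rule. From each described family came up to 4 called members with groups that do not overlap and at least 1 CPM in either group, in order of adjusted p. Added to these were STAG2, STAG1 and LMO2, the 10 called protein-coding genes with the largest gain and the 10 with the largest loss of CPM, and called protein-coding genes at 0 in 1 group. Not every gene so chosen is named. Promoter sequences came from the RefSeq table (GRCh38.p14). Alternatives were other scalings, filters and gene sets, DESeq2 1.42.0, all 7 libraries and each library left out. Floors of 3 counts cover counting error only, as these reads carry no molecular identifiers and can repeat a molecule. An exact two-sided permutation test of 3 against 2 libraries cannot go below 0.2 and was not used.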

Additional observations from a re-analysis of the deposited data

How the results depend on the processing

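The number of genes called was 5311, and it was 6199 in DESeq2, of which 5045 were the same genes, 5287 with RLE scaling, 5390 with upper-quartile scaling, 5576 with no filter on low counts, 4552 with at least 1 CPM in 2 libraries, 3928 for genes with whole counts only, 3984 for protein-coding genes only and 4963 with all 7 libraries. With 1 library left out it lay between 2271 (without knockout 3) and 6304 (without wild type 1), with 1194 to 3570 genes higher and 1077 to 2734 lower, and the lower counts came from the fits with 2 knockout libraries. In the 3 SA libraries 306 genes were called, 114 higher and 192 lower, of which 282 were also called with all 5. Upper-quartile scaling called 1824 genes higher and 3566 lower against 2763 and 2548. Without replicate 1 of wild type 4322 of the called genes were shared, and without replicate 3 of knockout 2238. The fits without a wild-type library keep only the other, and their calls take no account of the spread between wild-type libraries. No named gene changed direction in a fit that tested it. Of the named genes 167 were no longer called in the SA libraries, 27 to 36 without 1 knockout library and 3 to 8 without 1 wild-type library. Family medians that changed sign with the setting included condensin (-0.13 with upper-quartile scaling), solute carriers (-0.02 with that scaling), mitotic genes (0.14 without wild type 2), HSP70 genes (0.20 without wild type 2), ephrins, semaphorins and plexins (0.05 against -0.61, without wild type 1), chemokines (-0.14 against 0.59, without wild type 2), HLA genes (0.32 against -0.48, whole counts only) and RNU genes (1.44 against -3.10, whole counts only). The cause was not tested. No paired analysis was possible because the labels give the PF-382 libraries no replicate numbers shared between the groups.

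The wild-type libraries had the lower depth, so that 3 counts made 0.0883 and 0.0921 CPM there and 0.0321 to 0.0458 CPM in knockout. With 2 wild-type libraries, a gene that differs between them weighs on every fold given here.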
